A study of Homo sapiens with 4 samples.

Results

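Among 8173 melanoma cells from 4 single-cell libraries, 456 cells held at least 20000 unique molecular identifiers (UMIs, each standing for 1 captured RNA molecule) and not 1 UMI of MKI67, TOP2A, CDK1, UBE2C or CENPF. These 5 genes are transcribed in dividing cells, so cells without their RNA were set beside all other cells of the same library. They are called marker-negative cells here. The cells were chosen on the measured counts of the 5 genes, so the differences below describe them and carry no test. By library, told apart only by the suffix 1 to 4 of the cell barcode, the marker-negative cells were 152 of 2121, 54 of 1779, 159 of 2140 and 91 of 2133.

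The study sequenced RNA 3' ends (10x Genomics v2 chemistry) from the human melanoma cell line WM239A, described as poorly metastatic, and from 3 of its subclones. The subclone 113/6-4L has a high potential for metastasis to the lung, and 131/4-5B1 and 131/4-5B2 have a high potential for metastasis to the brain. Each line gave 1 library, with no treatment named and no replicate. Nothing in the sources used here ties a suffix to a line, so the 4 suffixes are unlabelled libraries, no line is compared with another, and neither means over suffixes nor p-values are given.

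A dividing cell passes from the gap phase G1 through DNA synthesis (S) and a second gap (G2) into mitosis (M), and a cell that leaves this cycle for a time is said to rest in G0. In G0 and early G1 the RB-family proteins p107 and p130, as part of the DREAM complex, hold down the genes of the later phases, many of which carry a CHR element (cell cycle genes homology region) and CCAAT boxes in their promoters. MKI67 coats mitotic chromosomes, TOP2A untangles DNA, CDK1 is the mitotic kinase, UBE2C passes ubiquitin to proteins destroyed in mitosis, and CENPF binds kinetochores. Low RNA of such genes is shared by G0 and G1 cells, and sampling of few molecules can also leave a gene without a UMI.

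Promoters of 2 genes of the rule, CDK1 and MKI67, and of 2 genes outside it that were among the lowest in marker-negative cells, PLK1 and CENPA, are shown for the CHR and CCAAT letters they hold. CDK1 and MKI67 are absent from the chosen cells by the rule, so their low level is no observation. The RefSeq promoter table (GRCh38.p14) matched 4 of the 5 marker genes, MKI67, TOP2A, CDK1 and CENPF. The 250 bases before the start site are printed 5′ to 3′ on the strand of the gene, with capitals for the CHR letters TTTGAA and the CCAAT letters, each on either strand (reversed, CCAAT reads ATTGG). CDK1 lies at chr10:60778081-60778330 on the plus strand and MKI67 at chr10:128126424-128126673 on the minus strand. PLK1, a mitotic kinase, lies at chr16:23678639-23678888 and CENPA, the histone variant of centromeres, at chr2:26785806-26786055, both on the plus strand.
CDK1: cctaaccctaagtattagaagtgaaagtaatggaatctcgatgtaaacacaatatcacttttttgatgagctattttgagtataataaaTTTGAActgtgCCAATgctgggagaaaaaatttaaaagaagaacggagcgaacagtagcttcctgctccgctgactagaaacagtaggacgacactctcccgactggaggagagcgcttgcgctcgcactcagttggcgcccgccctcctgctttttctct
MKI67: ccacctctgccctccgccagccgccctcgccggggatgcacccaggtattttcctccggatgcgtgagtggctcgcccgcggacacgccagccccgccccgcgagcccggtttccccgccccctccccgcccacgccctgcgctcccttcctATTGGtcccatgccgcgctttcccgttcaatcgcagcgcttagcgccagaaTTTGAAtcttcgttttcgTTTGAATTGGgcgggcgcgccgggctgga
PLK1: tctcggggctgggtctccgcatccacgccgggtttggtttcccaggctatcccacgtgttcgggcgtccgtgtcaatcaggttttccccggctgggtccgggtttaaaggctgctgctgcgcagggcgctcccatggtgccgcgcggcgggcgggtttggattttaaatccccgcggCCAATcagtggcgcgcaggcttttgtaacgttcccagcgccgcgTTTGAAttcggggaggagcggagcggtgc
CENPA: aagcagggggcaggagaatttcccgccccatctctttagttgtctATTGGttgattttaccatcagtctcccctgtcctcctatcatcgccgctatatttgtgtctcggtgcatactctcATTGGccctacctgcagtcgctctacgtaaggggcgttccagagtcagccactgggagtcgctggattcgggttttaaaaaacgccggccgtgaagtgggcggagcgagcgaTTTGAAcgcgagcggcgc
The CHR letters begin at position -161 from the start site in CDK1, at -47 and -29 in MKI67, at -29 in PLK1 and at -18 in CENPA. In MKI67 the second match shares a base with a reversed CCAAT at -24. The printed promoters each hold both kinds of letters, which not every such gene does. In the same 250 bases KIF2C held neither, SGOL1 and the marker gene CENPF held no CHR letters, and ANLN held no CCAAT. ASPM, GTSE1, SPC25, HJURP, CDCA8, DEPDC1 and the marker gene TOP2A held both.

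Over the whole 300-base promoter window, from 250 bases before to 50 bases after the start, the CHR letters were present in 15.4% of all 27305 promoters in the table and in 9.11% of the 3622 promoters matched to measured genes. A gene counted as measured with at least 20 CPM (a gene's UMIs per 1000000 UMIs) over all cells of every suffix. Among genes lower in marker-negative cells of every suffix, described below, 52 of 173 matched promoters (30.1%) held the CHR letters and 60.7% held CCAAT, against 39.4% for CCAAT among measured genes. Of the G2 and M phase genes 61.3% of 31 promoters held the CHR letters, and of the S phase genes 1 of 19 did. The E2F letters TTTGGCGC were in 15.8% of those 19, in 3.23% of the 31 and in 1.16% of the promoters of measured genes. The sets overlap, since most G2 and M phase genes are also among the lower genes. A match of letters describes the window and is no evidence of binding.

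Marker-negative cells made up 7.17%, 3.04%, 7.43% and 4.27% of all cells in suffixes 1 to 4. Of the cells with at least 20000 UMIs, which were 1753, 1645, 1818 and 1827 in number, they made up 8.67% (95% exact binomial interval 7.40 to 10.1%), 3.28% (2.48 to 4.26%), 8.75% (7.49 to 10.1%) and 4.98% (4.03 to 6.08%). The intervals cover counting error only. Suffixes 1 and 3 were alike in this share, and both lay above suffixes 2 and 4.

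Depth also differed between the suffixes. The median UMI count of all other cells was 34021, 41292, 33443 and 33602.5, highest in suffix 2. A cell with more UMIs has more chance to show a UMI of the 5 genes. The part of depth in the low share of suffix 2 was not tested. Suffixes 3 and 4 had nearly the same depth and shares of 8.75% and 4.98%. When every cell with at least 20000 UMIs was reduced to 20000, the expected shares were 16.9%, 10.3%, 15.9% and 10.0%. Suffixes 1 and 3 stayed above the other pair, while suffixes 2 and 4, whose intervals overlapped at full depth, changed order and came close together. Marker-negative cells themselves held a median of 29742, 35778.5, 30070 and 29477 UMIs and 5004.5, 5266.5, 4938 and 4800 detected genes.

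**Figure D1:**
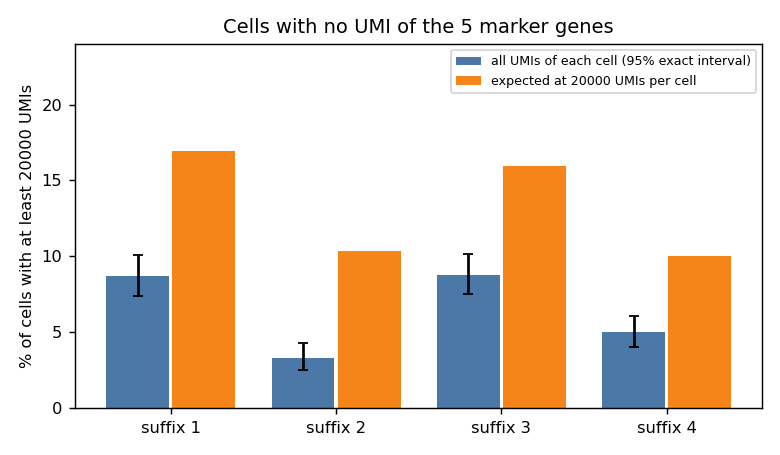
Share of cells with no UMI of MKI67, TOP2A, CDK1, UBE2C and CENPF among cells with at least 20000 UMIs (vertical axis, percent) in each suffix, at full depth with exact 95% binomial intervals (blue) and as the share expected at 20000 UMIs per cell (orange). Suffixes 1 and 3 stand at 8.67% and 8.75% at full depth, above suffix 2 (3.28%) and suffix 4 (4.98%), and all shares are larger at the lower depth.

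The 5 genes did not contribute equally. UBE2C was found in 81.3%, 88.1%, 77.7% and 83.6% of the other cells, while MKI67 was found in 51.0%, 61.1%, 57.3% and 64.6% and CENPF in 48.8%, 54.5%, 51.4% and 55.3%. Without UBE2C in the rule the share was 18.5%, 10.8%, 16.9% and 10.7%. No cell type known to lack these genes was present in the culture, so the level of free RNA in the droplets could not be measured. Just outside the rule, 235, 128, 227 and 144 cells had exactly 1 UMI of the 5 genes, more than had none. At the depth limit, 19, 4, 11 and 5 cells without a marker UMI held between 20000 and 22000 UMIs, and 22, 4, 14 and 14 held between 18000 and 20000.

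The name non-cycling was checked with cell cycle genes outside the rule. Each cell was reduced to 20000 UMIs and called G1, S or G2/M by its summed scores of S and G2/M genes, with the 5 marker genes left out. In suffixes 1 to 4, 80.9%, 85.2%, 75.5% and 70.3% of the marker-negative cells were called G1, against 31.2%, 26.6%, 25.3% and 17.2% of the other cells with at least 20000 UMIs. Calls of S took 19.1%, 14.8%, 23.3% and 29.7% of the marker-negative cells, and G2/M took 2 cells, both in suffix 3. With 0 of 54 cells in suffix 2, a G2/M share of up to 6.60% is within the exact interval. A cell in S phase is not resting, but an S call rests on scores alone. Whether the cells called S were making DNA was not measured, so the name is not borne out for all of these cells. A G1 call does not tell a resting cell from a cycling cell in G1, so how many of the others rest was not measured.

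Most G1-called cells were not marker-negative: the 456 cells supplied 19.8%, 9.81%, 22.2% and 17.7% of all cells called G1. Summed UMIs of the G2 and M phase list at 20000 UMIs per cell had medians of 27, 29, 27 and 34 in marker-negative cells and of 62, 68, 62 and 78 in the others. For the S phase list the medians were 12, 13.5, 14 and 15 against 30, 31, 33 and 35. The ranges overlapped, with 15, 5, 13 and 10 marker-negative cells above the median of the others for the S phase list. For the G2 and M phase list only 3, 0, 10 and 2 were.

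Genes were then compared between the classes by summing UMIs over the cells of a class within a suffix. A gene is called higher or lower where its CPM, with 1 added, differed at least 1.3-fold. Lower genes far outnumbered higher ones. Counts for a single suffix took the genes with at least 20 CPM in that suffix, whatever their level in the others. These were 4809, 4668, 4676 and 4713 genes in suffixes 1 to 4. In suffix 1, 44 of them were higher (0.915%) and 387 lower (8.05%). In suffix 2, 124 were higher (2.66%) and 517 lower (11.1%). In suffix 3, 39 were higher (0.834%) and 395 lower (8.45%), and in suffix 4, 63 were higher (1.34%) and 446 lower (9.46%). Of 4289 genes measured in every suffix, 25, 93, 30 and 50 were higher and 348, 459, 350 and 376 lower in suffixes 1 to 4. Of the same 4289 genes, 212 were lower in all 4 (4.94%), and 71 of these were lower at least 2-fold in all 4. A single gene, ZMAT3, was higher in all 4 (0.0233%), and none was higher by 2-fold in any suffix. Suffix 2 had both the most called genes and the fewest marker-negative cells, with 1946203 UMIs summed over them against 2739827 to 5042180 in the other suffixes, and the part of this in the counts was not tested.

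Genes of mitosis were the lowest. PLK1 gave 31, 10, 22 and 11 UMIs in the marker-negative cells of suffixes 1 to 4, which is 6.44, 5.14, 4.36 and 4.02 CPM, against 57.8, 50.7, 55.1 and 65.3 CPM in the other cells. Its ratio was thus between 0.0615 and 0.112. At 20000 UMIs per cell, PLK1 was found in 10.5%, 7.41%, 7.55% and 10.99% of marker-negative cells and in 43.0%, 43.4%, 39.2% and 46.6% of other cells. PLK1 was low in all suffixes alike and was not absent.

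CENPA stood at 9.34, 10.3, 9.92 and 12.04 CPM in marker-negative cells against 84.2, 72.6, 80.5 and 92.5 CPM. Its loading factor HJURP stood at 2.28, 2.57, 1.79 and 2.56 CPM against 25.4, 21.2, 24.1 and 26.6 CPM. Both had ratios between 0.0741 and 0.142 over the suffixes. GTSE1, a microtubule-binding regulator of G2, had ratios of 0.114, 0.0855, 0.0381 and 0.0699. The remaining leading genes, the spindle gene ASPM, the motor KIF2C, the kinetochore gene SPC25, the chromosomal passenger CDCA8, the spindle assembly factor TPX2, the cohesin protector SGOL1, DEPDC1 and the cytokinesis gene ANLN, had ratios between 0.0315 for ASPM in suffix 2 and 0.172 for DEPDC1 in suffix 2. Within this set each suffix's value lay below 0.2. CCNB1, the cyclin partner of CDK1, stood at 23.7, 26.7, 19.8 and 18.3 CPM against 105.3, 104.1, 92.0 and 114.4 CPM.

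**Figure D2:**
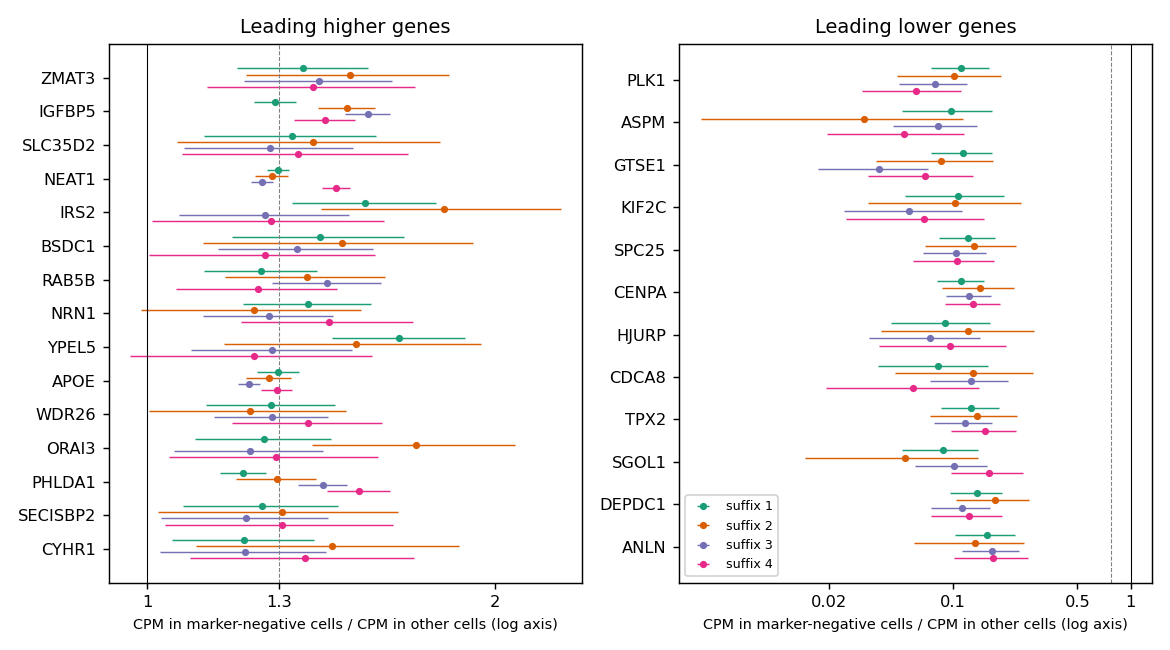
Ratio of CPM in marker-negative cells to CPM in other cells of the same suffix (horizontal, log axes of different range) for the 15 leading higher genes (left) and the 12 leading lower genes (right). Points are suffixes and bars are exact 95% counting intervals, which leave out variation between cells. Solid lines mark a ratio of 1 and dashed lines a 1.3-fold difference. ZMAT3 lies right of the 1.3-fold line in all 4 suffixes, and the lower genes all lie below 0.2.

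Of 37 measured genes on the G2 and M phase list, 36, 35, 36 and 36 were lower in suffixes 1 to 4 and none was higher. The median ratio of the list was 0.198, 0.264, 0.224 and 0.236, where the median over all measured genes was 0.980, 0.980, 0.982 and 0.981. Of 22 measured S phase genes, 21, 20, 19 and 18 were lower, with median ratios of 0.452, 0.484, 0.468 and 0.574. S phase genes thus differed less than mitotic genes, and least in suffix 4. That suffix also had the highest share of marker-negative cells called S. The S calls were made from the same list, so the share and the median ratio are not separate observations.

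RRM2, a subunit of the enzyme that makes deoxynucleotides, stood at 20.8, 25.2, 19.4 and 20.1 CPM in marker-negative cells against 130.8, 124.1, 149.8 and 154.4 CPM. PCNA, the sliding clamp of DNA polymerase, stood at 53.2, 61.7, 46.8 and 56.2 CPM against 107.6, 96.6, 88.0 and 97.3 CPM. Thymidylate synthase TYMS had ratios of 0.409, 0.511, 0.325 and 0.360, and CLSPN, which links stalled forks to the checkpoint, had ratios of 0.245, 0.333, 0.321 and 0.350. None of these 4 genes was in the rule, and all were lower in every suffix.

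Of the 212 genes lower in every suffix, 17 were on the S phase list, 35 on the G2 and M phase list, and 160 on neither. The most abundant of the 160 were chromatin proteins. The histone variant H2AFZ stood at 2331, 2379, 2385 and 2870 CPM against 3971, 4190, 4262 and 5005 CPM, a ratio between 0.560 and 0.587. The chromatin protein HMGB1 had ratios of 0.669, 0.647, 0.636 and 0.658, and HMGN2 had 0.717, 0.714, 0.652 and 0.729. Of 16 measured genes on the list of chromatin proteins of growing cells, 9, 10, 8 and 7 were lower, with median ratios of 0.742, 0.720, 0.763 and 0.789. Also lower were CALM2, a calmodulin gene (0.639 to 0.683), UBE2S, the partner of UBE2C (0.362 to 0.483), and LSM5, a subunit of a ring that binds U6 RNA (0.627 to 0.703). H2AFZ, HMGB1, HMGN2, CALM2, UBE2S and LSM5 were named after their values were seen, as the most abundant of the 160 beside HIST1H4C.

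The replication-dependent histone HIST1H4C stood at 253.5, 212.7, 201.7 and 234.0 CPM in marker-negative cells against 1049, 1034, 1148 and 1260 CPM. Such histone RNAs mostly lack a poly(A) tail, so a 3' library captures few of them. HIST1H2BK, the other measured gene of that list, can make polyadenylated RNA outside S phase and had ratios of 0.933, 1.51, 1.46 and 1.31. The list therefore held 1 gene that was lower in every suffix and 1 that was higher in suffixes 2, 3 and 4, with suffix 1 apart. Without its 5 highest cells in each suffix HIST1H2BK had 0.840, 1.33, 1.25 and 1.17.

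Higher genes were fewer and closer to 1. ZMAT3, a zinc finger protein and p53 target, gave 255, 102, 204 and 100 UMIs, or 52.95, 52.4, 40.5 and 36.5 CPM, against 38.8, 35.0, 28.7 and 26.2 CPM in the other cells. Its ratios were 1.36 (95% counting interval 1.20 to 1.55), 1.5 (1.22 to 1.82), 1.41 (1.21 to 1.63) and 1.39 (1.13 to 1.70). Levels of ZMAT3 in the marker-negative cells were above those of the other cells in all 4 suffixes. The 5 marker-negative cells with the highest ZMAT3 level held 14.5%, 25.5%, 14.2% and 22.0% of its UMIs. Leaving them out gave 1.21, 1.21, 1.24 and 1.15. No cells were left out of the other class, which lowers a ratio by construction. These values therefore cannot tell whether the 1.3-fold call rested on few cells. Every ratio given here without the 5 highest cells has this limit. Moreover, 5 cells are a larger part of the 54 marker-negative cells of suffix 2 than of the 152, 159 and 91 in suffixes 1, 3 and 4. Such ratios therefore do not compare the suffixes. Without cells above 10% mitochondrial UMIs the ZMAT3 ratios were 1.33, 1.41, 1.43 and 1.296, so that suffix 4 missed the 1.3-fold line. IGFBP5, a secreted binding protein of insulin-like growth factors, stood at 509.1, 646.9, 416.1 and 413.9 CPM against 394.7, 434.5, 268.3 and 290.7 CPM. Its ratios were 1.29, 1.49, 1.55 and 1.42, so only suffix 1 missed the 1.3-fold line, and narrowly. Without its 5 highest cells IGFBP5 had 1.18, 1.18, 1.38 and 1.21. At 20000 UMIs per cell the median count of IGFBP5 per cell was 9, 8, 6 and 7 in marker-negative and 6, 7, 4 and 4 in other cells.

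NEAT1, the nuclear RNA that builds paraspeckles, stood at 1888, 1925, 1657 and 1867 CPM against 1456, 1502, 1319 and 1282 CPM, ratios of 1.3, 1.28, 1.26 and 1.46. The ratio in suffix 4 had a counting interval above those of all other suffixes. There the 5 highest cells held 19.5% of the NEAT1 UMIs, and without 5 such cells in each suffix the ratios were 1.22, 1.14, 1.18 and 1.23. IRS2, an adaptor of insulin signalling, had ratios of 1.54, 1.81, 1.26 and 1.28. PHLDA1, which responds to MAPK signalling, had 1.21, 1.29, 1.42 and 1.52. The order of the suffixes thus differed from gene to gene, with IRS2 highest in suffix 2 and PHLDA1 in suffix 4. SLC35D2 (a nucleotide sugar transporter), BSDC1, RAB5B (early endosomes), NRN1 (neuritin), YPEL5, APOE (the lipid carrier apolipoprotein E), WDR26, ORAI3 (a calcium channel), SECISBP2 (selenoprotein synthesis) and CYHR1 completed the 15 leading genes. Their ratios lay between 1.21 and 1.71, and the counting intervals of NRN1 in suffix 2 and of YPEL5 in suffix 4 reached below 1.

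By a looser description, 108 genes had a counting interval above 1 in every suffix and 423 had such an interval below 1. A counting interval of a ratio covers the counting of UMIs only, and variation between cells would widen it. Without regard to size, 768 genes had ratios above 1 in all 4 suffixes and 1290 had ratios below 1. The most abundant genes of the 108 differed little: the ferritin light chain FTL had ratios of 1.15, 1.19, 1.13 and 1.19, the nuclear RNA MALAT1 1.08, 1.14, 1.22 and 1.21, and translation factor EEF1A1 1.08, 1.08, 1.1 and 1.08. Ribosomal protein genes took a median of 23.8%, 22.9%, 24.8% and 24.01% of a cell's UMIs in marker-negative cells and 22.9%, 23.0%, 23.8% and 23.1% in the others, so suffix 2 differed in direction from the rest. CPM is a share of a fixed sum, and the median difference over all measured genes was -0.03 on the log2 scale in each suffix.

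Brakes of the cycle did not move together. Of 5 measured CDK inhibitors and pocket proteins, CDKN2C, CDKN3 and CDKN2D were lower in every suffix. CDKN2C, which binds CDK4 and CDK6, stood at 12.5, 14.4, 11.3 and 11.3 CPM against 40.2, 42.1, 44.2 and 43.9 CPM. CDKN3, a phosphatase that acts on CDKs, had ratios between 0.391 and 0.420, and CDKN2D between 0.402 and 0.529. CDKN1A, the p21 inhibitor and a p53 target, was different in direction, at 68.7, 156.2, 67.8 and 58.8 CPM against 58.0, 85.9, 55.8 and 48.2 CPM. The p27 gene CDKN1B was below the 20 CPM limit, with ratios of 0.959, 1.06, 0.699 and 0.973.

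CDKN1A passed 1.3-fold only in suffix 2, where its ratio was 1.82 (1.61 to 2.04) against 1.18, 1.22 and 1.22 elsewhere, and the 4 counting intervals left suffix 2 apart. Few cells carried much of this RNA. In suffix 2 the 5 cells with the highest CDKN1A level supplied 31.9% of its UMIs in marker-negative cells, and the median cell had 3 UMIs. In the other suffixes the 5 highest cells supplied 21.2%, 29.2% and 39.8%, and the median cell had 1 UMI. Leaving out those 5 cells in the same way gave ratios of 0.969, 1.36, 0.889 and 0.787. At 20000 UMIs per cell CDKN1A was found in 77.8% of marker-negative and 66.6% of other cells of suffix 2, and in 53.95%, 49.7% and 44.0% against 52.97%, 45.3% and 47.5% in suffixes 1, 3 and 4. The ratio without 5 cells was below 1 in suffixes 1, 3 and 4 and past 1.3-fold in suffix 2. It falls by construction and by a different part of the cells in each suffix. It therefore cannot tell whether CDKN1A in suffix 2 stands apart from the others.

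Other p53 targets had smaller differences. Of 8 measured genes on that list, 1, 3, 1 and 1 were higher and 1, 0, 1 and 0 lower, with median ratios of 1.05, 1.14, 1.08 and 1.1. GDF15, a secreted stress factor, stood at 699.1, 640.7, 509.7 and 482.1 CPM against 663.5, 426.9, 485.0 and 425.7 CPM. RPS27L, a p53-induced ribosomal protein relative, had ratios of 1.27, 1.48, 1.20 and 1.14, and the DNA repair gene DDB2 had 0.677, 0.783, 0.696 and 0.786. GDF15 and RPS27L had counting intervals in suffix 2 above all other suffixes, as CDKN1A did. Without their 5 highest cells, GDF15 and RPS27L in suffix 2 had ratios of 1.18 and 1.26. The mitochondrial share of UMIs was also highest in the marker-negative cells of suffix 2, at 7.45% against 6.72% in its other cells, where the other suffixes had 5.51%, 7.21% and 7.03% against 5.40%, 7.11% and 6.83%. Without cells above 10% mitochondrial UMIs, CDKN1A had ratios of 1.12, 1.71, 1.002 and 1.20.

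Genes that drive G1 also went separate ways. CCND1, the cyclin D1 gene, stood at 454.7, 878.1, 1007 and 1007 CPM against 413.2, 766.9, 906.7 and 928.0 CPM, ratios of 1.1, 1.14, 1.11 and 1.09. MYC, the growth-promoting transcription factor, stood at 89.3, 64.7, 112.5 and 101.5 CPM against 78.5, 51.3, 74.3 and 67.6 CPM. It was higher past 1.3-fold in suffixes 3 and 4 (1.51 and 1.5) and had ratios of 1.14 and 1.26 in suffixes 1 and 2. E2F1, a factor that switches on S phase genes, was lower in every suffix (0.361, 0.332, 0.357 and 0.584), as was CCND3 (0.674, 0.673, 0.538 and 0.654). CDK4 had ratios of 0.821, 0.759, 0.799 and 0.771. Cyclin E2, CCNE2, was below the 20 CPM limit.

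Of 10 measured quiescence and anti-proliferative genes, 8 had ratios above 1 in all 4 suffixes, but 1, 1, 0 and 0 were called higher. YPEL5 led with 1.65, 1.52, 1.28 and 1.24. BTG1, an anti-proliferative factor, had 1.05, 1.20, 1.28 and 1.18, and KLF6 had 1.14, 1.19, 1.11 and 1.20. TXNIP, a brake on glucose uptake, was below the limit in CPM, with ratios of 0.686, 1.12, 1.20 and 1.35. The list median was 1.03, 1.20, 1.05 and 1.13, beside 0.98 for all measured genes.

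Pigment cell genes, the defining markers of the labelled melanoma line, were present in both classes. Of 17 measured melanocytic genes, none passed 1.3-fold in either direction in any suffix, and the list median was 1.1, 1.09, 1.05 and 1.04. PMEL, the scaffold protein of melanosomes, stood at 2477, 2924, 5863 and 5186 CPM in marker-negative cells against 2181, 2761, 4808 and 4468 CPM. MITF, the master regulator of melanocytes, had ratios of 1.1, 1.17, 1.09 and 1.03. APOE, placed on this list, had 1.3, 1.27, 1.23 and 1.29. PMEL levels set suffixes 3 and 4 above 1 and 2 in both classes, and the class made less difference than the suffix.

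The MHC class I genes HLA-B and HLA-E, whose reads can be shared among near-identical relatives, had ratios of 1.03, 1.24, 1.24 and 1.16 and of 1.14, 1.27, 1.18 and 1.18. Of the 9 measured genes of that list, 6 had ratios above 1 in every suffix and 3 below 1, and none was called higher. The 3 were the immunoproteasome subunits PSMB8 (0.957, 0.894, 0.945 and 0.902) and PSMB9 (0.651, 0.954, 0.866 and 0.878), the latter called lower in suffix 1, and the chaperone CALR (0.906, 0.911, 0.886 and 0.893). Of 26 nuclear genes of oxidative phosphorylation and 12 mitochondrially encoded genes, none was called in any suffix, with medians of 1.03, 1.03, 1.02 and 1.03 and of 1.05, 1.11, 1.07 and 1.06. Heat shock proteins and chaperonins leaned the other way: 12 of 16 had ratios below 1 in every suffix, and the median was 0.891, 0.867, 0.934 and 0.891. The metallothionein MT2A, which binds zinc and copper, stood at 1977, 1499, 927.0 and 1153 CPM against 2771, 1917, 1319 and 1390 CPM, while its near relative MT1X, whose reads may not be fully told apart, had ratios of 1.1, 1.04, 1.13 and 1.27.

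**Figure D3:**
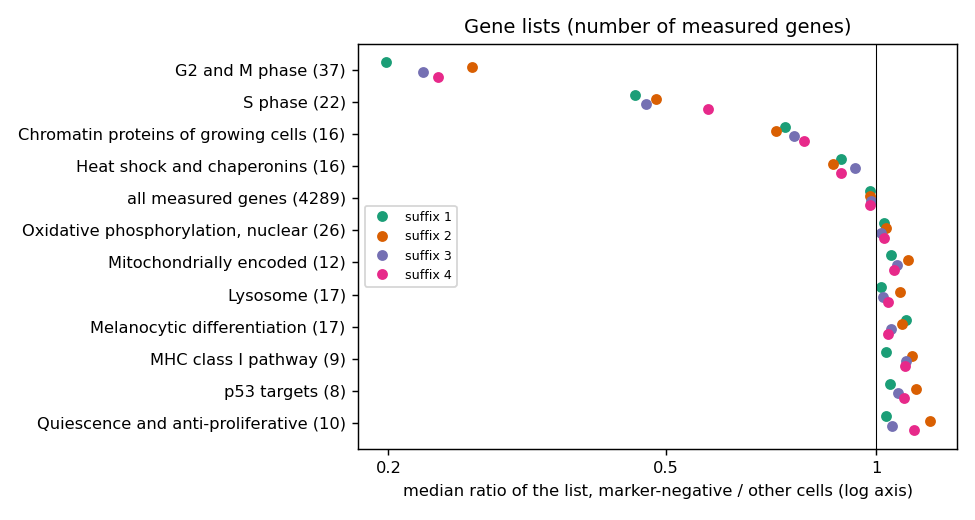
Median ratio (marker-negative over other cells, log axis) of the measured genes of each list, with their number in parentheses; each point is a suffix. G2 and M phase genes lie between 0.198 and 0.264 and S phase genes between 0.452 and 0.574, while the other lists lie between 0.720 and 1.20.

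A narrower reference was the other cells called G1, which were 499, 423, 420 and 298 in number. Since those cells were picked for low scores of S and G2/M genes, values of such genes against them follow in part from that choice. Of the 212 genes lower than in all other cells, 2 were also lower than in G1-called cells in every suffix. These were CCNB1 (0.735, 0.729, 0.759 and 0.529, with 1 CPM added) and its relative CCNB2 (0.741, 0.756, 0.751 and 0.640). The replication licensing factor CDC6 (1.58, 2.18, 2.04 and 1.45) and CLSPN (1.59, 1.49, 1.5 and 1.62) were higher in every suffix. The S phase list had medians of 1.19, 1.05, 1.27 and 1.29, and the G2 and M phase list 0.80, 0.858, 0.899 and 0.95.

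Genes that led the higher set against all other cells came close to 1 against G1-called cells. ZMAT3 stood at 52.95, 52.4, 40.5 and 36.5 CPM against 45.6, 51.3, 41.0 and 46.0 CPM, ratios of 1.16, 1.02, 0.986 and 0.793. IGFBP5 had ratios of 1.01, 1.15, 1.15 and 0.898, and NEAT1 had 1.18, 0.866, 1.07 and 1.12. Of the 15 leading genes, 13 did not keep 1 direction over the suffixes. IRS2 (1.17, 1.24, 1.075 and 1.05) and SECISBP2 (1.02, 1.17, 1.004 and 1.11) were above 1 in all 4, with counting intervals that reached below 1 in each. CDKN1A, which was not a leading gene, had 1.1, 1.19, 0.652 and 0.808.

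Levels were also followed over 5 classes of cells with 0, 1, 2 to 4, 5 to 19 and at least 20 UMIs of the 5 genes, among cells with at least 20000 UMIs. Cells with 1 UMI were close to those with none in their G1 share: 80.9%, 78.1%, 74.9% and 66.0% of them were called G1. No gene outside the rule differed 1.3-fold between these 2 classes in every suffix, but differences in single suffixes occurred. CCNB1 stood at 23.7, 26.7, 19.8 and 18.25 CPM at 0 UMIs and at 24.8, 36.5, 22.1 and 35.7 CPM at 1 UMI. IGFBP5 in suffix 1 went from 509.1 CPM at 0 UMIs to 544.0, 451.2, 375.2 and 295.2 CPM over the next classes, and in suffix 3 from 416.1 to 411.4, 304.2, 243.5 and 209.8 CPM. PLK1 in suffix 1 went from 6.44 to 6.13, 15.4, 53.1 and 122.0 CPM. PCNA had its highest class at 5 to 19 UMIs in all suffixes, with 135.5, 109.5, 119.7 and 122.3 CPM. MYC was lowest in the class with at least 20 UMIs, at 42.4, 29.2, 40.5 and 38.5 CPM, and H2AFZ was highest there, at 5055, 4988, 5315 and 5780 CPM.

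**Figure D4:**
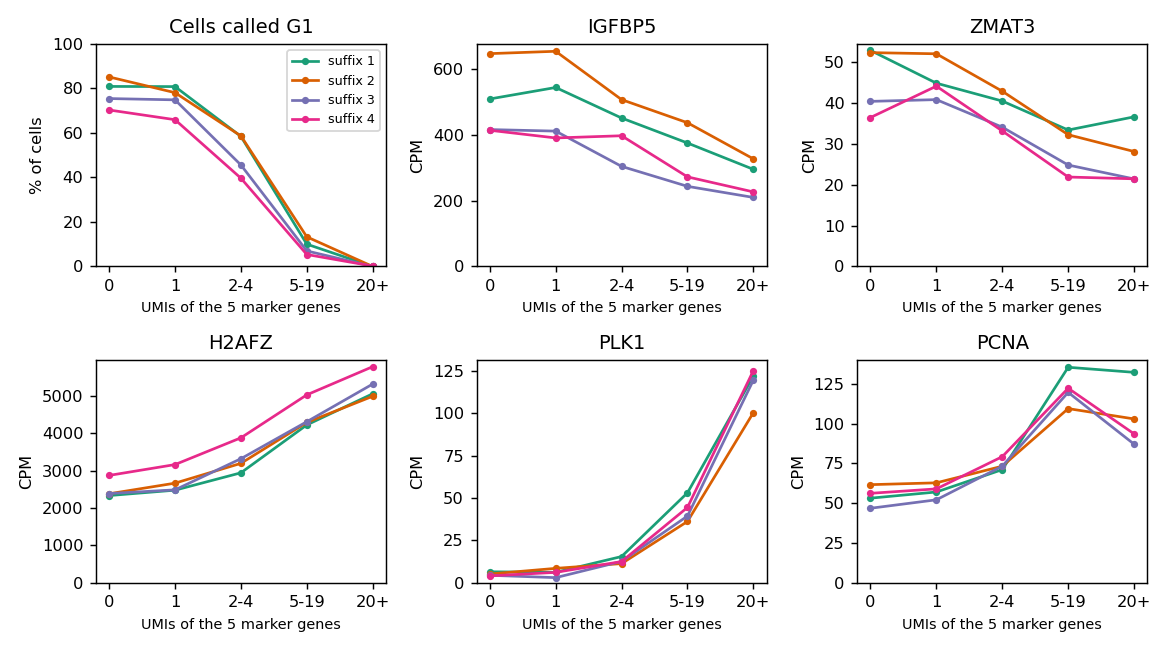
Cells called G1 (percent) and CPM of IGFBP5, ZMAT3, H2AFZ, PLK1 and PCNA in cells with at least 20000 UMIs, grouped by their UMIs of the 5 marker genes (horizontal axis, 5 classes); each line is a suffix. Cells with 0 and 1 UMI lie close together, IGFBP5 and ZMAT3 are lower and H2AFZ and PLK1 higher in the classes with more marker UMIs, and PCNA is highest at 5 to 19 UMIs.

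Genes that marked the cells in a single suffix were few. A gene was counted so where it was called in 1 suffix and stayed under 1.1-fold in that direction in the 3 others. Of the 4289 genes measured in every suffix, 25, 93, 30 and 50 were called higher in suffixes 1 to 4 and 348, 459, 350 and 376 lower. Among these, 2, 17, 0 and 6 genes were higher in 1 suffix only, and 3, 29, 2 and 11 were lower in 1 suffix only. The largest numbers again fell in suffix 2, with its 54 cells. None of these 70 genes had a counting interval apart from those of all other suffixes. Examples are PTRF (cavin-1) in suffix 1, at 32.4 CPM against 22.9 CPM and a ratio of 1.41, XPNPEP3 in suffix 2 with 1.44, and the lysosomal lipase LIPA and the mitophagy receptor BNIP3 in suffix 4 with 1.49 and 1.44. Lower in suffix 4 only were the transcription factor ELF1 (0.641) and KLHDC2 (0.682), and in suffix 3 only ANKS1A (0.689) and the Mediator subunit MED31 (0.749). At this depth no gene met both rules for marking the cells of a single suffix.

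Without the size rule, 14, 59, 6 and 10 genes had a counting interval in suffixes 1 to 4 apart from all others. Since such intervals leave out variation between cells, these numbers may be too large. Beside CDKN1A, GDF15 and RPS27L in suffix 2, the calcium-binding protein S100A6 had 1.14, 1.41, 1.01 and 1.19. The export receptor XPO1 had 0.687, 1.27, 0.786 and 0.587, and the protease inhibitor SERPINE2 had 1.17, 1.40, 0.997 and 1.08. SERPINE2 in suffix 2 had a ratio of 0.958 once its 5 highest cells, which held 36.7% of its UMIs, were left out. In the same way S100A6 in suffix 2, with 30.6% of its UMIs in 5 cells, had 1.11 and XPO1 had 1.035. In suffix 1, APOD, a lipocalin, had 0.909 against 1.36, 1.25 and 1.26 in the others, and 0.784, 0.947, 1.03 and 0.989 without the 5 highest cells of each suffix. S100A6, XPO1, SERPINE2 and APOD were picked for these values.

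Genes that set libraries apart in the other cells mostly did so in the marker-negative cells too, while the marker-negative cells had further such genes of their own. For each pair of suffixes 5170 genes were compared, all with at least 20 CPM over all cells of 1 or more suffixes. Between suffixes 1 and 3, 241 of the 5170 differed at least 2-fold within marker-negative cells and 194 within other cells. Both sets held 172 genes (71.4% and 88.7% of each). Between suffixes 3 and 4, 13 and 3 of the 5170 differed at least 2-fold, with all 3 in both sets. The 4 remaining pairs had 106 to 233 such genes in marker-negative cells and 60 to 182 in the others. Of the genes found in marker-negative cells, those shared with the other cells were 63.6% for suffixes 1 and 2, 69.1% for 1 and 4, 56.9% for 2 and 3, 49.1% for 2 and 4 and 23.1% for 3 and 4. Of the genes found in the other cells, 82.7% to 100% were shared, over all 6 pairs. No gene was 2-fold apart in opposite directions in the 2 classes. Fewer UMIs were summed in the marker-negative cells, and the part of this in their larger numbers was not tested.

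MMP1, a collagenase, stood at 141.0 CPM in marker-negative cells of suffix 1, had no UMI in suffix 2 and stood at 0.595 and 1.82 CPM in suffixes 3 and 4, where other cells had 138.4, 0.0572, 1.32 and 1.3 CPM. BST2, the membrane protein tetherin, was instead lowest in suffix 1, with 0.415, 118.2, 177.5 and 161.0 CPM against 0.539, 108.7, 171.9 and 150.9 CPM. VCX3B, a member of a gene family with near-identical copies and therefore uncertain, had 210.0 and 85.8 CPM in suffixes 3 and 4 against 212.3 and 94.4 CPM. For MMP1 and BST2 the 2 classes of a suffix were alike, and the suffixes were far apart.

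HLA-DRA, an antigen-presenting chain of MHC class II, was an exception in size. It stood at 103.4 CPM in marker-negative cells of suffix 1 against 58.4 CPM in other cells, a ratio of 1.77 (1.61 to 1.94). In suffixes 2, 3 and 4 the marker-negative cells gave 13, 0 and 7 UMIs, too few to compare. HLA-DRA was found in 57.9% of the marker-negative cells of suffix 1 and in 50.4% of the other cells with at least 20000 UMIs, and the 5 highest cells held 24.3% of its UMIs. CD74, its invariant chain, had ratios of 1.32, 1.08, 0.537 and 1.51, of which the last 2 rest on 19 and 48 UMIs.

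Markers of other cell types did not set the marker-negative cells apart. Summed endothelial markers stood at 65.4, 44.2, 47.8 and 46.0 CPM against 54.5, 43.8, 47.9 and 46.3 CPM, most of it from EGFL7. Summed immune markers stood at 33.2, 38.5, 39.9 and 37.6 CPM against 29.6, 35.1, 38.5 and 38.2 CPM, most of it from CD68. The defining immune genes PTPRC and CD14, the fibroblast collagen COL1A1, and the glial and neuronal genes AQP4 and RBFOX3 had no UMI in marker-negative cells. They were at most 0.0877 CPM in the other cells too, so these zeros do not tell the classes apart. Fibroblast markers summed to 13.7, 2.57, 0.595 and 1.825 CPM against 13.9, 2.37, 0.392 and 0.570 CPM. The suffix 4 sum came from 5 UMIs of PDGFRA, at 1.825 CPM against 0.102 CPM, while LUM had 0 UMIs there. Epithelial markers summed to 130.7 to 198.8 CPM against 115.5 to 177.0 CPM. Of these, KRT8 had ratios of 1.23, 1.14, 1.43 and 1.06, and KRT18 had 1.004, 1.13, 1.095 and 1.13. Glial and neuronal markers summed to 329.6 to 650.5 CPM against 301.6 to 548.0 CPM. Of the last, MBP stood at 360.3, 200.9, 194.2 and 223.4 CPM against 310.2, 182.2, 191.4 and 195.0 CPM. Some barcodes occurred in more than 1 suffix: 39 were found in 2 suffixes, 4 marker-negative cells carried such a barcode, and in no case were both cells marker-negative.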

How the data were processed

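The deposited table held UMI counts per gene and cell, 19238 genes by 8173 cells pooled over 4 barcode suffixes. The submitters' processing notes name Cell Ranger 3.0.0, Seurat 3.0 and the builds hg19 and mm10, with no roles. All cells had between 3001 and 6999 detected genes and at most 19.9% mitochondrial UMIs. A second deposited table, of natural log values, was not used. The marker-negative cells and the 33 gene lists were chosen with earlier results of these data known. UMIs were summed per suffix and class and scaled to CPM, and folds were taken on log2(CPM + 1), which understates low genes. Ratios printed without that addition have exact 95% intervals conditional on the summed UMIs. These intervals treat UMIs as independent and leave out variation between cells. No test was possible, because libraries carry no label and no replicate. Phases were scored with scanpy 1.11.5 on counts thinned to 20000 UMIs. Doublets were left in and no caller was run. The procedure was checked on simulated data. Python 3.11.15, numpy 2.4.6, scipy 1.17.1 and pandas 2.3.3 were used. Named genes are the 15 highest and 12 lowest by the suffix nearest 1, without mitochondrial, ribosomal protein and clone-named genes, up to 4 per suffix and direction among genes called there only, up to 4 per list, 3 per pair of suffixes, and CDKN1A, CDKN1B, CCND1, CCNE2, MITF, PCNA, CCNB1 and TXNIP. Genes named for other reasons are described as such or as the most abundant. Some items are not reported here. Alternatives varied the rule, depth, reference cells, CPM limit, pseudocount, fold and totals.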

Additional observations from a re-analysis of the deposited data

Results flagged for a closer look

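The median UMI count of the marker-negative cells stood apart in suffix 2: it was 35778.5 there and 29742, 30070 and 29477 in suffixes 1, 3 and 4. The gap to the nearest suffix was 0.906 of the whole range. The other cells of suffix 2 also had the highest median, at 41292 UMIs. Of 8 measures compared over the 4 suffixes this was the 1 that stood out, where chance picks out about 1 in 20, and the 4 libraries are not replicates of a group. Its part in the larger number of genes called in suffix 2 was not tested.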

How the results depend on the processing

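No paired analysis was possible because the 4 libraries, 1 for each line, carry no replicate number. Genes are counted as higher in every suffix, lower in every suffix, higher in 1 suffix only and lower in 1 suffix only (1, 212, 25 and 45 as reported). The 4 counts were within 1.5 times of these with other cells of at least 20000 UMIs, with other cells weighted to the UMIs of the marker-negative cells, with a pseudocount of 0.1 and with the mean of per-cell shares. Against other cells called G1 they were 2, 2, 62 and 75. With at most 1 marker UMI, 8 genes were higher in every suffix and 1 higher and 3 lower in 1 suffix only. With 5 further genes required to be at 0, which left 16, 5, 23 and 7 cells, 5 were higher in every suffix and 465 higher and 551 lower in 1 only. With marker-negative cells called G1 these 3 counts were 4, 42 and 72, thinned to 20000 UMIs 2, 13 and 20, and with pseudocount 10 they were 0, 8 and 16. Totals without mitochondrial and ribosomal protein genes gave 2 higher in every suffix, and cells of at most 10% mitochondrial UMIs gave 0. A minimum of 10 CPM gave 4 higher in every suffix, with 97 higher and 159 lower in 1 only; a minimum of 50 CPM gave 0, 90, 4 and 3, and no minimum 25, 491, 1515 and 1313. At 1.5-fold the 4 counts were 0, 134, 0 and 3, and at 2-fold 0, 71, 0 and 0. By counting intervals, a description chosen after seeing the data, 108 were higher and 423 lower in every suffix. Of the 25 and 45 genes called in 1 suffix only, 0 and 0 also had an interval apart from every other suffix. Leaving out each suffix in turn, also chosen after seeing the data, gave 1 to 5 genes higher and 224 to 241 lower in the 3 that remained; without suffix 1, 3 or 4 the higher genes were 5, 4 and 4.

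The share of marker-negative cells among cells with enough UMIs, in suffixes 1 to 4, was 22.1%, 11.1%, 21.2% and 12.9% with at most 1 marker UMI and 0.913%, 0.304%, 1.26% and 0.383% with the 5 further genes at 0. Thinned to 20000 UMIs it was 16.9%, 10.3%, 15.9% and 10.0%. With a minimum of 10000 UMIs it was 11.4%, 4.05%, 10.4% and 6.52%, and with 30000 UMIs 5.73%, 2.54%, 6.16% and 3.36%. It was 9.75%, 4.01%, 10.2% and 6.29% with MKI67 left out of the rule, 11.5%, 4.68%, 11.2% and 6.79% without TOP2A, 11.7%, 5.29%, 11.1% and 6.62% without CDK1, 18.5%, 10.8%, 16.9% and 10.7% without UBE2C, and 9.41%, 4.25%, 10.3% and 5.97% without CENPF. Suffix 2 was lowest in all of these but the thinned share and the share without UBE2C, where suffix 4 was. Genes 2-fold apart within marker-negative cells, for the pairs 1 and 2, 1 and 3, 1 and 4, 2 and 3, 2 and 4, and 3 and 4, numbered 97, 139, 117, 55, 44 and 2 with pseudocount 10 and 83, 110, 102, 49, 39 and 7 with a minimum of 50 CPM. G1 shares at deposited depth stayed within their counting intervals.

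For the 160 named genes, 12 refits gave 1920 median log2 folds over the suffixes, of which 1673 stayed close, 231 moved and 16 changed sign. Against other cells called G1 the value was -0.005 for SLC35D2, 0.065 for CDCA8, 0.29 for ATAD2, 0.63 for CLSPN, 0.23 for E2F1, 0.065 for CCND3, 0.12 for CDKN2C, 0.14 for DEK, 0.046 for DNAJB1, 0.008 for PMAIP1, 0.34 for CCNE2, 0.32 for PCNA and -0.25 for HLA-DRA. With 5 further genes at 0 it was -0.20 for BSDC1, 0.15 for DDB2 and -0.86 for HLA-DRA. The HLA-DRA medians include suffixes with few or no UMIs of that gene. In suffix 1, where HLA-DRA was well counted, its ratio against G1-called cells was 1.48 (counting interval 1.33 to 1.64). The cause of the changes of sign was not tested, though the G1 calls use S phase genes and the stricter rule leaves 5 to 23 cells. Depth limits the rest: counting intervals of genes near 20 CPM span about 1.3-fold or more, so smaller differences between suffixes were not detectable.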

Other observations

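Lists not described above held few called genes in marker-negative cells, but calls were also few over all genes. Of all 4289 measured genes, 25, 93, 30 and 50 were higher and 348, 459, 350 and 376 lower. Low counts in these short lists are therefore no trait of the lists. Of 16 measured glycolysis genes, none was higher in any suffix and 0, 1, 0 and 1 were lower, and ENO2, the neuronal enolase, had ratios of 0.867, 0.790, 0.849 and 0.745. Among 15 measured genes of the amino acid and endoplasmic reticulum stress response, the mitochondrial folate enzyme MTHFD2 stood at 152.4, 81.2, 133.1 and 81.0 CPM against 181.4, 121.0, 166.2 and 122.7 CPM in other cells, past 1.3-fold in suffixes 2 and 4. Of 13 measured cholesterol synthesis genes, none was higher in any suffix and 0, 1, 1 and 1 were lower. Of 17 measured lysosome genes, 8 had ratios above 1 in every suffix and none was called, with SQSTM1, the autophagy receptor p62, at 1.11, 1.15, 1.17 and 1.18. PMAIP1, which encodes the pro-apoptotic protein NOXA, had ratios of 0.701, 0.665, 0.863 and 0.482.

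Marker-negative cells varied among themselves in abundant genes. The Fano factor, the variance of a count over its mean at 20000 UMIs per cell, had a median over 1996 genes of 1.23, 1.28, 1.22 and 1.21 in marker-negative cells and of 1.20, 1.17, 1.17 and 1.16 in the others. FTL stood out with 27.0, 33.0, 44.6 and 36.9 against 19.3, 18.9, 15.3 and 15.1, higher in marker-negative cells of every suffix. FTH1, the ferritin heavy chain, had 10.2, 17.7, 24.7 and 13.8 against 9.89, 10.8, 8.69 and 9.11. H2AFZ had 11.4, 14.6, 15.7 and 14.8 against 17.0, 14.6, 16.6 and 15.5.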
